A study of Mus musculus with 4 samples.

Results

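The canonical Wnt pathway is described here by the chromatin contacts of 10 of its genes in mouse embryonic stem cells: Fzd7, Lrp5, Lrp6, Ctnnb1, Axin2, Nkd1, Tcf7, Lef1, Tcf7l1 and Sp5. The members were chosen by name, and their contacts by position. Every pair of anchors was taken in which at least 1 anchor overlapped a GENCODE M21 transcription start site of a member on GRCm38. An anchor is a genomic interval between which read pairs were counted, and the word loop stands for any pair of anchors in the table, also one with few counts. The rule found 884 of the 1513030 loops in the table, built on 12 of 56562 anchors, and all 10 genes had at least 1 anchor.

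The assay was HiChIP, which ligates DNA ends that lie close together in fixed nuclei and enriches the ligated fragments with an antibody, here against the histone mark H3K27ac of active promoters and enhancers. The B6 group, of strain C57BL/6J, held the lines B6 4-1 and B6 5-1, the D2 group, of strain DBA/2J, held D2 2-9 and D2 5-5, and each line gave 1 library. All 4 lines grew in serum with LIF, the MEK inhibitor PD0325901 at 1 μM and the GSK3 inhibitor CHIR99021 at 3 μM. The B6 and D2 groups therefore share a medium in which Wnt signalling is stimulated, and no line without CHIR99021 was analysed here.

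In the Wnt pathway, a secreted Wnt protein binds a Frizzled receptor and its co-receptor Lrp5 or Lrp6, and this stops a complex built on Axin, Apc and the kinase GSK3 from marking β-catenin for destruction. β-catenin then enters the nucleus and binds the TCF/LEF factors, which switches on target genes such as Axin2 and Sp5. In embryonic stem cells the pathway favours self-renewal, and CHIR99021 acts on it directly by blocking GSK3.

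Library totals lay between 2767882 and 2944258 counts, and values below are CPM, the count divided by the library's total and multiplied by 1e6, unless another unit is named. D2 replicate 1 stood apart from the others: its name carries 10cyc where theirs carry 8cyc, a mark the labels do not explain, and it had counts in the fewest loops (715798, against 803268 to 833100). Of 10 embryonic stem cell markers, 7 had a start-site anchor, with summed contact totals of 1767 and 1950 CPM in B6 replicates 1 and 2 and 2831 and 1833 CPM in D2 replicates 1 and 2. Of the 7, Sox2 (log2 fold change of D2 over B6 0.50, edgeR adjusted p 0.00769) and Nanog (0.56, 0.00579) passed the test used below. Both were higher in both D2 libraries than in both B6 libraries. The other 5 did not pass the test: Tbx3 (0.40, edgeR adjusted p 0.0704), Zfp42 (0.34, 0.109), Pou5f1 (-0.24, 0.235), Klf4 (-0.31, 0.131) and Prdm14 (-0.14, 0.592). Klf2, Esrrb and Tfcp2l1 had no start-site anchor. Of 5 fibroblast markers only Thy1 had one, with 3.61 to 7.56 CPM in the 4 libraries. Of 7 germ layer markers 6 had one, with summed totals of 121 to 153 CPM.

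Of the 99 tested member loops 1 was called in the strain comparison below, a share near that of all loops. It joins the anchor over Fzd7, at chr1:59467540-59492578, to an anchor at chr1:59444999-59453321. The latter overlaps no protein-coding gene, is called intergenic in that sense, and is named the changed partner. The anchors of this loop begin and end at GATC, the site cut by DpnII, as all 56562 anchors do. The 4 ends are shown as 30 bases of the plus strand of GRCm38 with the cut site in capitals, because they fix which restriction fragments were counted.
Fzd7 anchor, left end, chr1:59467527-59467556: cacttggcagtggGATCaagtctggagtca
Fzd7 anchor, right end, chr1:59492565-59492594: agccatgtggcatGATCaaagcagagaggg
Changed partner, left end, chr1:59444986-59445015: accagagtgttttGATCataaaaagataaa
Changed partner, right end, chr1:59453308-59453337: catagtggcatgaGATCagcctggtctaaa

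The promoter windows of the members were searched on both strands for forms of the sequence that TCF/LEF factors bind: CTTTGAA as the first, CTTTGAT as the second and CTTTGTT as the third. The windows are 300 bases of RefSeq on GRCm38.p6, from 250 before to 50 after a start. All members but Lrp5 and Lrp6 had windows in the table used, and Sp5 held 2 matches and Fzd7 1, the others none. The windows of Tcf7l1 and Nkd1, and 1 of the 4 windows of Lef1, lay outside their anchors. Both are shown 5′ to 3′ on the plus strand, the strand of these genes, with the matches in capitals; AACAAAG is CTTTGTT on the other strand.
Sp5, chr2:70474673-70474972: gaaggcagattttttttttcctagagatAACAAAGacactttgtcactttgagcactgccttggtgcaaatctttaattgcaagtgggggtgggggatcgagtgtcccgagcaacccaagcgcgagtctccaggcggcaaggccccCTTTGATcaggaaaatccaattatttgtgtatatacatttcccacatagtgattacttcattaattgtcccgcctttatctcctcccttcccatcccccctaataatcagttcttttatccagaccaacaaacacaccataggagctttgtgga
Fzd7, chr1:59481897-59482196: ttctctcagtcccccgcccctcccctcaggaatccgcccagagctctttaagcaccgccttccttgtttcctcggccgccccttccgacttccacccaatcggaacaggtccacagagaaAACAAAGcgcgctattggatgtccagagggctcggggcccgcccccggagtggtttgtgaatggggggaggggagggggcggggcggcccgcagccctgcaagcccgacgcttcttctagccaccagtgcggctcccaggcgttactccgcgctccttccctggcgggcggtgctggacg

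Of 32851 RefSeq promoter windows of the same length, 13.9% held at least 1 of the 3 motifs: CTTTGAA was in 5.14%, CTTTGAT in 3.73% and CTTTGTT in 5.85%. Over a whole anchor, Sp5 had 19 matches, or 16.8 per 10 kb, and Axin2 had 18, or 12.3 per 10 kb. All anchors over a protein-coding start site together had 6.65 matches per 10 kb. Among the 4334 such anchors of at least 10 kb, 0.0692% had a rate as high as that of Sp5 and 1.32% one as high as that of Axin2. The Fzd7 anchor had 9.59 matches per 10 kb and its changed partner 8.41. The other member anchors ranged from 3.91 (Nkd1) to 10.9 (the second Ctnnb1 anchor). The densest stretch of 300 bases in the Sp5 anchor, chr2:70474809-70475108, held 4 matches, as many as 2.33% of those 4334 anchors have somewhere. A match describes the letters of the reference genome, in which DBA/2J differences were not analysed here.

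Start sites were covered unevenly, which limits what the counts of some genes stand for. Tcf7l1 had 1 anchor, chr6:72628109-72631485, over an internal noncoding start and over none of its protein-coding starts. Nkd1 had 1 small anchor, chr8:88520616-88523175, over 1 of its 3 starts. Lrp6 had an anchor over its protein-coding starts, chr6:134563270-134569491, and a second one inside the gene, chr6:134470203-134472326. Ctnnb1 had its main anchor at chr9:120926000-120955980 and a second one at chr9:120959033-120965425. The second lay over 1 noncoding start of Ctnnb1 and over none of its protein-coding starts. It also covers a start site of Ulk4, so its counts belong to both genes. The remaining anchors covered protein-coding starts: chr19:3682157-3692709 for Lrp5, chr11:108915597-108930220 for Axin2, chr11:52279729-52287902 for Tcf7, chr3:131092184-131120555 for Lef1 and chr2:70469851-70481167 for Sp5.

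Contacts per kilobase of anchor differed widely between the genes. On the scale of CPM per kb, averaged over the 4 libraries, Tcf7 led with 11.0 (9.50 to 12.0), and its lowest library lay above the highest of Tcf7l1, at 8.58 (7.72 to 9.05). Lrp5 followed with 7.98 (6.98 to 8.66) and the second Ctnnb1 anchor with 7.38 (6.85 to 7.97). Their ranges overlapped each other, and both overlapped that of Tcf7l1. The Fzd7 anchor (5.26 to 7.91) and the protein-coding Lrp6 anchor (5.84 to 7.13) both averaged 6.58, but their order turned with strain, at 5.59 and 7.01 in B6 and 7.58 and 6.14 in D2. The median of all start-site anchors was 5.78. The main Ctnnb1 anchor (5.47), the internal Lrp6 anchor (4.82) and Axin2 (4.70) had overlapping ranges. Sp5 with 3.73, Lef1 with 2.36 and Nkd1 with 1.37 were each separate from the next in order. Lef1 sat on a broad anchor of 28371 bp, and its level per kb was at the 14.9th percentile of start-site anchors, against the 84.7th for Tcf7.

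Of the 884 loops, 260 had a single count over the 4 libraries, and 99 reached the 20 counts needed for the test; the other 785 were not tested. The share tested was 11.2%, against 7.14% of all loops. At the authors' q-value under 0.01 in all 4 libraries stood 51 of the 884 loops (5.77%, against 3.31% of all loops). Strains were compared over all 108034 loops with 20 counts by the quasi-likelihood test of edgeR, adjusted by Benjamini-Hochberg, with a threshold of 0.05. The test called 1.45% of these loops (0.492% higher and 0.957% lower in D2), 531 higher and 1034 lower; scaled by library totals only, the split was 685 and 861. More loops were called higher than lower without D2 replicate 2 (1172 and 857) and with no count minimum (463 and 296). Separate lines stand behind the replicates. The p-values rest on the spread between 2 lines per strain, which the fit shares across all features. Line and library preparation cannot be told apart in that spread.

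Among the 99 tested loops of the Wnt genes 1 was called, the Fzd7 loop introduced above, which is a share near that of all loops. The unadjusted p was under 0.05 for 8 loops, 5 higher and 3 lower in D2, where 11.7% of all tested loops had such a p. The CPM of the strains did not overlap in 34 of the 99 loops, against 41.7% of all. The median log2 fold change of D2 over B6 was 0.13 for these loops and 0.02 for all tested loops. In the plot of loop changes by gene, the loops of Fzd7 and Axin2 lie mostly above 0 and those of Lrp5 and Tcf7 mostly below. Of all tested loops 51.1% lay above 0, and loops of 1 gene share an anchor and are not independent.

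**Figure D1:**
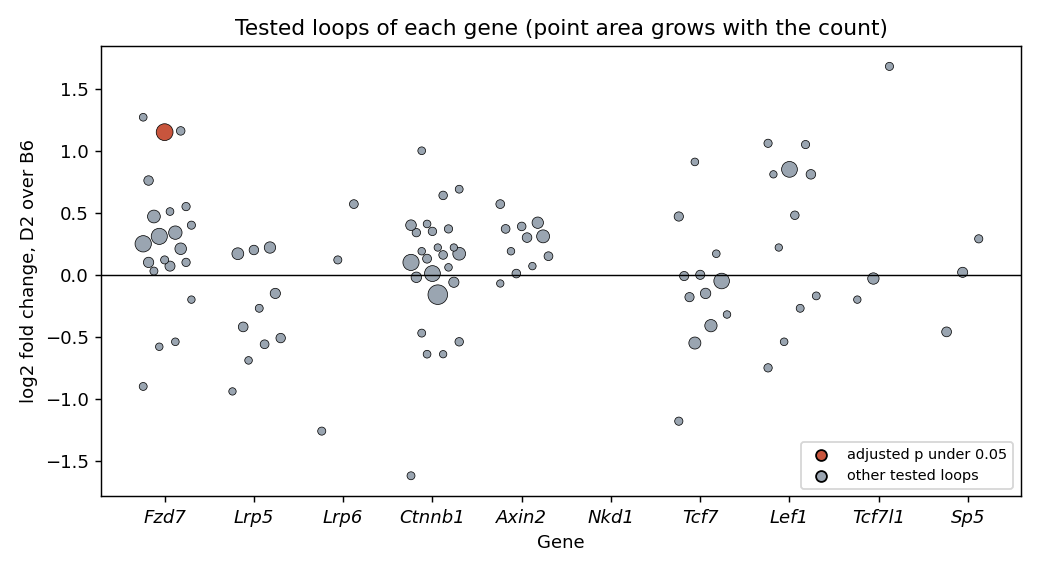
Log2 fold change of D2 over B6 (vertical axis) for the 99 tested loops, by gene (horizontal axis); each point is 1 loop and its area grows with its count. The 1 loop with an adjusted p under 0.05 belongs to Fzd7, at 1.15, and Nkd1 had no tested loop.

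The contact total of a gene sums all loops of its start-site anchors. For these totals the test called 1839 of 13810 protein-coding genes, 13.3% (3.53% higher and 9.79% lower in D2), or 487 higher and 1352 lower; scaled by library totals only, the split was 876 and 1084, and without D2 replicate 2 it was 1558 and 1716. Of the 10 Wnt genes 1 was called, Fzd7, again near the share of all genes. The strains did not overlap in CPM for 4 of the 10 (Fzd7, Lrp6, Axin2 and Tcf7l1), against 56.4% of all genes. The median log2 fold change was -0.03 for the 10 genes and 0.01 for all tested genes. None of the 12 member anchors was called by edgeR's test over 51820 anchors, of which 9.75% were (2.67% higher and 7.08% lower in D2, or 1383 and 3671, which became 3819 and 3841 without D2 replicate 2), nor by DESeq2; at an unadjusted p under 0.05 in edgeR stood 1 of the 12, that of Fzd7, against 21.9% of all anchors.

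**Figure D2:**
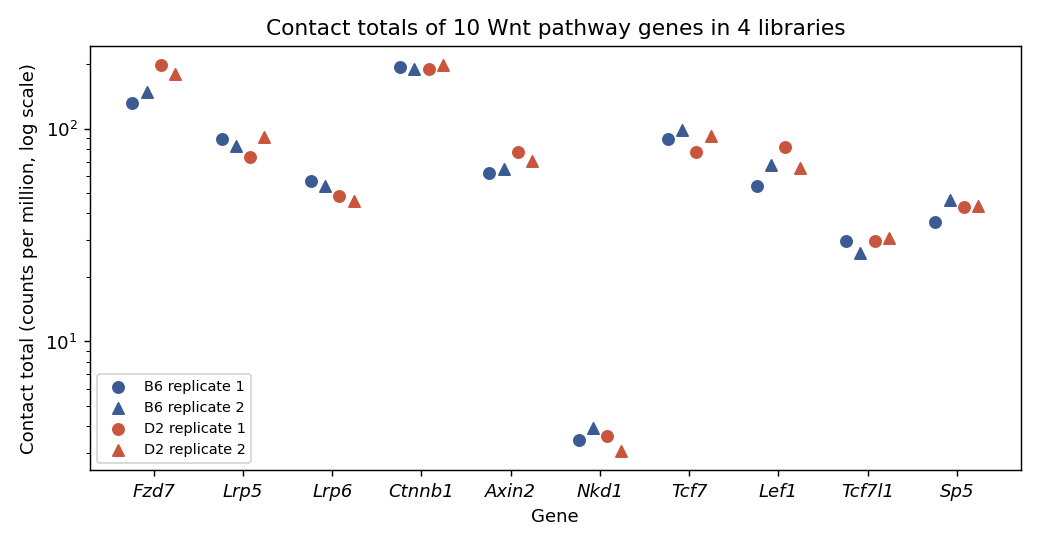
Contact total of each of the 10 genes in CPM (vertical axis, log scale), with circles for replicate 1 and triangles for replicate 2, blue for B6 and red for D2. The D2 libraries of Fzd7, at 198.0 and 181.4 CPM, lie above the B6 libraries at 131.7 and 148.2, and Nkd1 lies lowest, at 3.06 to 3.93 CPM.

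Fzd7, the Frizzled receptor of this set, had more contact counts in D2. Its total was 131.7 and 148.2 CPM in B6 replicates 1 and 2 and 198.0 and 181.4 CPM in D2 replicates 1 and 2 (140 ± 11.7 against 190 ± 11.7, SD, n = 2 each). Both D2 libraries lay above both B6 libraries. The total rose by a log2 fold change of 0.37 (SE 0.12), or 1.29-fold, with an adjusted p of 0.0407 (edgeR's quasi-likelihood test, adjusted by Benjamini-Hochberg over all tested genes). Fzd7 has 1 anchor, so the anchor holds the same counts as the total and is no second measurement. Tested among anchors, with scaling factors fitted over anchors, it was at log2 0.48 (SE 0.16, edgeR adjusted p 0.0531). Scaled by library totals only, the total and the anchor both stood at log2 0.44. The call on the total was lost without B6 replicate 1 (0.27, edgeR adjusted p 0.521), without B6 replicate 2 (0.46, 0.157), without D2 replicate 1 (0.32, 0.0638) and in DESeq2 (0.38, adjusted p 0.162).

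The called Fzd7 loop runs 30.9 kb upstream, to an anchor with no protein-coding start site. The nearest such site is that of Fzd7, 29103 bp away from that anchor. The loop is described here. The loop held 34 and 35 counts in B6 and 87 and 74 in D2, replicates 1 and 2 in order, or 11.7, 12.5, 31.4 and 25.1 CPM. The D2 libraries had more than the B6 libraries in each case, with a B6 mean of 12.1 ± 0.57 CPM and a D2 mean of 28.3 ± 4.45 CPM (SD, n = 2 each). The log2 fold change was 1.15 (SE 0.27) and the adjusted p 0.00266 by edgeR. The fold change was 0.99 to 1.30 over 11 alternatives, and 6 of them kept the call. It was lost without B6 replicate 1 (edgeR adjusted p 0.273), without B6 replicate 2 (0.157), without D2 replicate 1 (0.0528), with a minimum of 10 counts (0.0661) and in DESeq2 (0.165).

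The neighbouring loops of Fzd7 did not pass the test. The second Fzd7 loop, to an anchor 21.6 kb upstream, held 51, 45, 70 and 49 counts in B6 replicates 1 and 2 and D2 replicates 1 and 2, and its strains overlapped in CPM (log2 0.25, SE 0.26, edgeR adjusted p 0.796). The third, 50.5 kb upstream, held 43, 48, 65 and 53 counts without overlap (log2 0.31, SE 0.26, edgeR adjusted p 0.720). Whether the 3 loops differ from one another in their change was not tested. With the changed loop left out, a choice made after seeing the data, the Fzd7 total had 349, 380, 461 and 460 counts, with a log2 fold change of 0.27 and an edgeR adjusted p of 0.169.

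The total of the changed partner was higher in D2, with the called Fzd7 loop included. Over 77 loops it was 203 and 215 counts in B6 and 368 and 326 in D2. The log2 fold change was 0.77 (SE 0.16) with an edgeR adjusted p of 0.000808. The Fzd7 loop is among these 77 and led to this partner, so the total is no independent measurement. Its change without that loop was not tested. The loops with at least 1 anchor within 500 kb of the Fzd7 start that do not use its own anchor summed to 612.4, 650.2, 754.4 and 756.7 CPM in the same order, a log2 ratio of 0.26 between the strain means, beside 0.44 for the gene's own loops. D2 replicate 1, whose stem cell marker total was the highest, also had the highest Fzd7 value, Sox2 and Nanog were higher in both D2 libraries, and the part of these differences in the result was not tested beyond leaving that library out. The farthest tested Fzd7 loop, 1070.0 kb upstream to the start sites of Bzw1 and Clk1, held 4, 3, 8 and 10 counts (log2 1.27, SE 0.68, edgeR adjusted p 0.416).

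**Figure D3:**
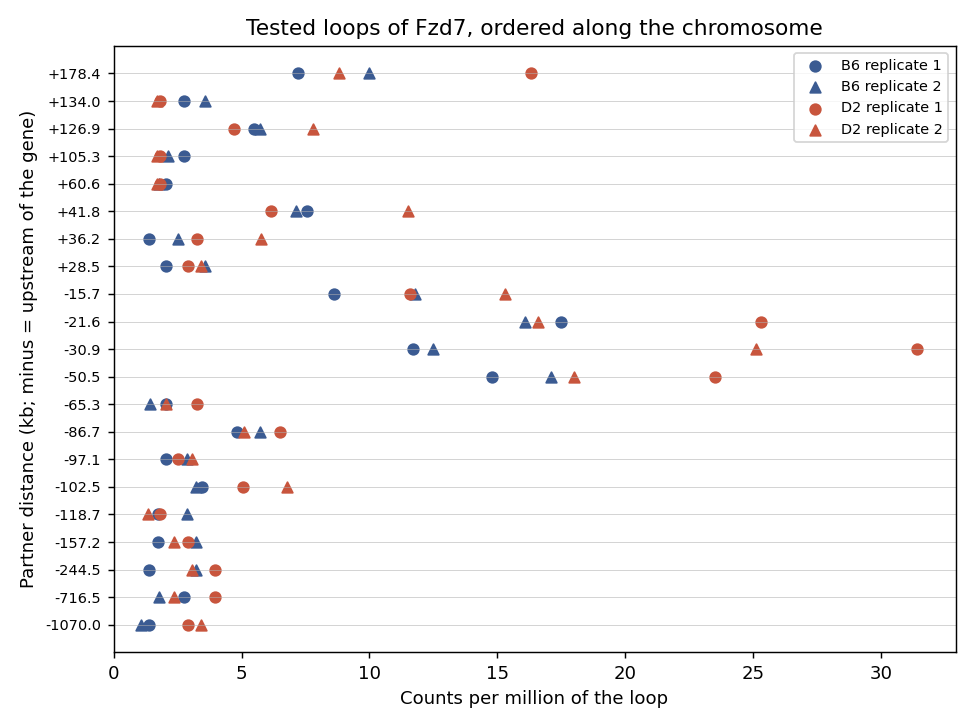
CPM (horizontal axis) of the 21 tested Fzd7 loops in each of the 4 libraries, ordered along the chromosome by partner distance in kb (vertical axis, minus for upstream). At 30.9 kb upstream the B6 libraries lie at 11.7 and 12.5 CPM and the D2 libraries at 31.4 and 25.1, the widest gap in CPM on the plot.

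Lrp5, a co-receptor of Wnt, did not differ detectably. Its total was 89.1 and 82.8 CPM in B6 and 73.7 and 91.4 CPM in D2, so that the D2 libraries enclosed the B6 ones (log2 -0.12, SE 0.14, edgeR adjusted p 0.653). It lies in a gene-dense stretch, and 58 of its 95 partner anchors covered start sites of other protein-coding genes, 70 genes in all. Its loop with the most counts, 8.71 kb into the gene, held 29, 16, 27 and 26 counts; the next ran to 1810055G02Rik with 23, 17, 19 and 30, and the third to Chka, a choline kinase gene 159.1 kb away, with 19, 15, 14 and 18. The strains overlapped in all 3. Its farthest tested partner was the start of Cpt1a, which encodes a carnitine palmitoyltransferase, at 361.2 kb (7, 7, 2 and 7 counts).

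Lrp6, the other co-receptor, lay in surroundings that were lower in D2. The loops within 500 kb that do not use its anchors summed to 2065.4 and 2240.0 CPM in B6 and 1243.2 and 1293.7 CPM in D2, a log2 ratio of -0.76. Its own total was 56.7 and 53.9 CPM in B6 and 48.1 and 45.5 CPM in D2, without overlap (log2 -0.31, SE 0.16, edgeR adjusted p 0.222). The own total missed the threshold, but when anchors within 2 kb of a start site were counted it was past it, at -0.46 (edgeR adjusted p 0.0162).

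Only 3 of the 132 loops of Lrp6 were tested, and these went both ways, while the sum of all its loops was lower in D2, as given above. The totals of the partner anchors of its 3 tested loops all fell in D2: 12.9 kb upstream from 111 and 120 to 71 and 84 counts (log2 -0.54, edgeR adjusted p 0.0457), 9.17 kb into the gene from 76 and 110 to 36 and 45 (-1.17, 0.000168), and 53.8 kb upstream, within Mansc1, from 334 and 338 to 211 and 227 (-0.58, 0.0105). The loops from Lrp6 to these partners held 10, 6, 12 and 13 counts (log2 0.57, edgeR adjusted p 0.724), 13, 8, 5 and 4 (-1.26, 0.348), and 6, 8, 10 and 6 (0.12, 0.961). None of the 3 loops, at 30 to 41 counts each, was called.

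**Figure D4:**
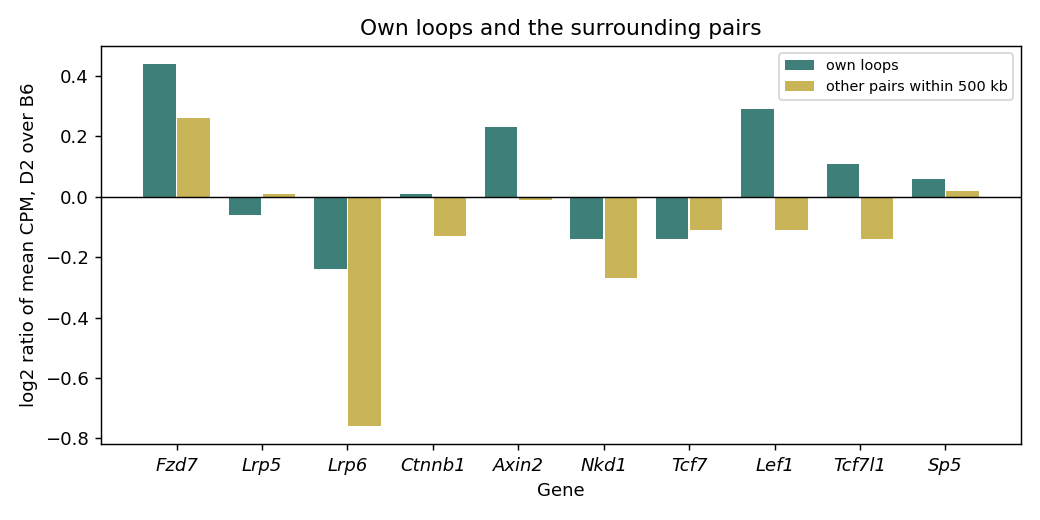
Log2 ratio of the mean CPM in D2 to that in B6 (vertical axis) for each gene's own loops and for all other loops with the midpoint of at least 1 anchor within 500 kb of its first protein-coding start site. The bars of Lrp6 stand at -0.24 and -0.76, those of Fzd7 at 0.44 and 0.26, and those of Lef1 at 0.29 and -0.11.

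Ctnnb1 encodes β-catenin, the carrier of the signal into the nucleus, and had the most loops of the set. Its 170 loops summed to 194.3 and 191.4 CPM in B6 and 190.8 and 198.4 CPM in D2, with overlapping strains. The difference on the log2 scale was -0.06 (SE 0.12, edgeR adjusted p 0.827), or 0.01 when scaled by library totals only. Of 25 tested loops, which share its 2 anchors, 17 were above 0 and 8 below, where 51.1% of all tested loops were above 0. Contacts reached upstream with 69.0% of the counts.

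Its strongest loop ran 23.1 kb upstream and held 82, 84, 80 and 76 counts, a level within the same range in all 4 libraries (log2 -0.16, SE 0.24, edgeR adjusted p 0.871). The second, 195.0 kb upstream, lay 156398 bp from the nearest protein-coding start, that of the ribosomal protein gene Rpl14, and held 54, 45, 43 and 68. The third joined the 2 anchors of Ctnnb1, of which the downstream one also covers the Ulk4 start, with 59, 39, 53 and 50. The farthest tested partner was over Xirp1, 929.8 kb upstream, with 5, 5, 5 and 9. Loops of 100 to 500 kb took 54.2% of the Ctnnb1 counts, against 35.6% over all loops.

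Axin2, the feedback scaffold that rebuilds the destruction complex and a standard readout of the pathway, had 61.9 and 64.6 CPM in B6 and 78.0 and 70.6 CPM in D2. The D2 libraries lay above the B6 libraries, but the difference did not pass the test (log2 0.16, SE 0.15, edgeR adjusted p 0.543). Of its 11 tested loops 10 were above 0 and 1 below, where 51.1% of all tested loops were above 0. The 11 loops share the 1 Axin2 anchor, so they are not independent. Its first loop, 11.3 kb upstream, held 27, 27, 37 and 33 counts (log2 0.31, SE 0.30, edgeR adjusted p 0.779), and the second, 33.0 kb upstream, 18, 19, 26 and 26 (0.42, SE 0.35, 0.708). Both loops end in intergenic anchors. The third ran 437.8 kb downstream to Gna13, a G protein subunit gene, with 9, 15, 16 and 15 counts, and the farthest tested one 1556.6 kb upstream to Pitpnc1 with 8, 2, 7 and 5.

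Nkd1, a feedback inhibitor that binds Dishevelled, had too few counts for a comparison of loops. Its 23 loops summed to 10 and 11 counts in B6 and 10 and 9 in D2, or 3.06 to 3.93 CPM, and 12 of them had a single count. No loop reached 20 counts; the 3 with the most had 3 counts each, within Snx20 and at the starts of Snx20 and Nod2, 105.7 to 125.6 kb away. The total stood at log2 -0.21 with an SE of 0.47 (edgeR adjusted p 0.831), so that only a large difference could have been detected.

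Tcf7, the TCF/LEF factor also called TCF1, contacted several promoters nearby. Its total was 89.7 and 98.2 CPM in B6 and 77.7 and 92.4 CPM in D2, with overlap (log2 -0.21, SE 0.14, edgeR adjusted p 0.370). Other promoters took 53.1% of its counts. Of the counts of all loops with a promoter anchor, 40.1% joined 2 promoters. That share counts each loop once, so it is no background for a share seen from 1 gene. The first partner, 74.3 kb away, was the start of Vdac1, a mitochondrial channel gene, with 37, 59, 49 and 48 counts. The second was Skp1a, a ubiquitin ligase subunit gene, with 31, 30, 20 and 28, and the third lay 18.6 kb into Tcf7 itself with 32, 28, 15 and 28. The latter 2 loops stood at log2 -0.41 (SE 0.32, edgeR adjusted p 0.678) and -0.55 (SE 0.33, 0.535), with D2 replicate 1 lowest in both. Its farthest tested partner covered the starts of Cdkl3 and Ube2b, 283.2 kb away, with 14, 9, 10 and 14 counts.

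Lef1, the TCF/LEF factor whose own gene responds to Wnt in many cells, had more counts in D2 in its strongest loop. Its total was 53.6 and 67.1 CPM in B6 and 82.0 and 65.6 CPM in D2, with overlap (log2 0.22, SE 0.16, edgeR adjusted p 0.412). The first loop, to an intergenic anchor at chr3:131082373-131088654, 20.9 kb upstream, took 26.0% of the counts. It held 35 and 34 counts in B6 and 73 and 57 in D2, or 12.0, 12.1, 26.4 and 19.4 CPM, and both D2 libraries lay above both B6 libraries. The log2 fold change of 0.85 (SE 0.27) missed the threshold with an edgeR adjusted p of 0.0789. It was past the threshold without D2 replicate 2 (1.05, edgeR adjusted p 0.0148), but not without D2 replicate 1 (0.61, 0.543), B6 replicate 1 (0.84, 0.553) or B6 replicate 2 (0.85, 0.505), nor in DESeq2 (0.85, adjusted p 0.625).

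The total of that upstream anchor of Lef1 was higher in D2, with the Lef1 loop included. It had 76 and 79 counts in B6 and 140 and 119 in D2 over 51 loops, or log2 0.78 (SE 0.19, edgeR adjusted p 0.00293). The counts of the Lef1 loop given above are part of this total, so it is no independent measurement. Its change without that loop was not tested. The other loops within 500 kb of Lef1 had a log2 ratio of -0.11. The second Lef1 loop, 67.9 kb into the gene, held 12, 7, 22 and 13 counts (log2 0.81, SE 0.45, edgeR adjusted p 0.465), and the third, within Hadh, 8, 7, 10 and 12. The farthest tested partner was the start of Ostc, 410.1 kb upstream, with 6, 9, 6 and 7 counts; the total of that partner anchor fell from 147 and 135 to 98 and 92 (log2 -0.53, edgeR adjusted p 0.0416).

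Tcf7l1, the factor also called TCF3 and mainly a repressor in embryonic stem cells, could be followed only from its internal noncoding start. Its total, all from that anchor, was 29.6 and 26.1 CPM in B6 and 29.6 and 30.6 CPM in D2 (log2 0.04, SE 0.20, edgeR adjusted p 0.928). In the test among anchors it stood at log2 0.15 (SE 0.19, edgeR adjusted p 0.722). Its first loop ran 9.67 kb to the start of Tgoln1, a gene of the trans-Golgi network, with 28, 16, 16 and 29 counts and overlapping strains. The second, 6.16 kb away inside Tcf7l1, held 2 and 5 counts in B6 and 13 and 11 in D2, or 0.688, 1.79, 4.70 and 3.74 CPM. It had the largest log2 fold change of the 99 tested loops, 1.68 (SE 0.66), and did not pass the test (edgeR adjusted p 0.154). The third lay 210.3 kb upstream within Kcmf1 with 5, 6, 6 and 4 counts.

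Sp5, a zinc finger factor that is a direct target of the pathway, was close to equal in the strains. Its total was 36.4 and 46.1 CPM in B6 and 43.0 and 43.1 CPM in D2, with the D2 libraries between the B6 ones. The difference on the log2 scale was -0.01 (SE 0.18, edgeR adjusted p 0.990), or 0.06 when scaled by library totals only. The first loop, 10.6 kb downstream, held 14, 17, 21 and 12 counts. The second ran 87.4 kb to the start of Gad1, the gene of a GABA-producing enzyme, with 16, 17, 14 and 11 (log2 -0.46, SE 0.42, edgeR adjusted p 0.742), and the third lay 18.1 kb upstream with 6, 8, 11 and 7. Sp5, whose anchor had the highest rate of TCF/LEF matches among the members, had 3 tested loops, and none of them was called.

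The partner anchors of the tested loops were themselves compared, with the member loops included in their totals. Of 95 such anchors 10 were called, 4 higher and 6 lower in D2, against 9.75% of all anchors, and their median log2 fold change was 0.086, beside 0.01 for all. The calls lay at Fzd7 (2 higher), Axin2 (1 higher), Lef1 (1 higher, 2 lower), Lrp6 (3 lower) and Ctnnb1 (1 lower). The partners of Tcf7, Lrp5, Sp5 and Tcf7l1 had none.

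Contacts of the 10 genes reached over different distances. Median distances of the counts, pooled over the libraries, were 50.5 kb for Fzd7, 74.3 kb for Tcf7 and 93.2 kb for Lrp5, against 113.5 kb for all loops, and these 3 genes lay below all loops in each library. Lrp6 (150.8 kb), Sp5 (174.7 kb), Ctnnb1 (231.2 kb) and Nkd1 (431.5 kb) lay above all loops in each library. For the others the order changed between libraries. The mean of the library medians was 195.8 kb in B6 and 40.3 kb in D2 for Axin2, and 170.2 and 104.5 kb for Lef1. All loops had means of 119.9 and 107.6 kb, and Tcf7l1 likewise lay above them in the B6 mean and below in the D2 mean. By library the order did not follow strain. In B6 replicate 1, Axin2 (88.9 kb) and Tcf7l1 (94.8 kb) lay below all loops (120.4 kb). In D2 replicate 2, Lef1 (131.1 kb) lay above all loops (110.2 kb). Axin2 had few contacts at 50 to 100 kb, which took 1.15% of its counts, with 25.7% at 5 to 20 kb, 23.9% at 20 to 50 kb, 24.7% at 100 to 500 kb and 24.5% beyond. Tcf7l1 had the highest share at 5 to 20 kb, 37.2%, where all loops had 11.8%. No loop of Lef1 was under 20 kb, and none of Nkd1 under 100 kb. Distances run between anchor midpoints, so the width of an anchor limits how near a partner can lie. The anchor of Lef1 was 28371 bp wide, the main one of Ctnnb1 29980 bp, that of Tcf7l1 3376 bp and that of Nkd1 2559 bp. The part of anchor width in these shares was not tested.

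**Figure D5:**
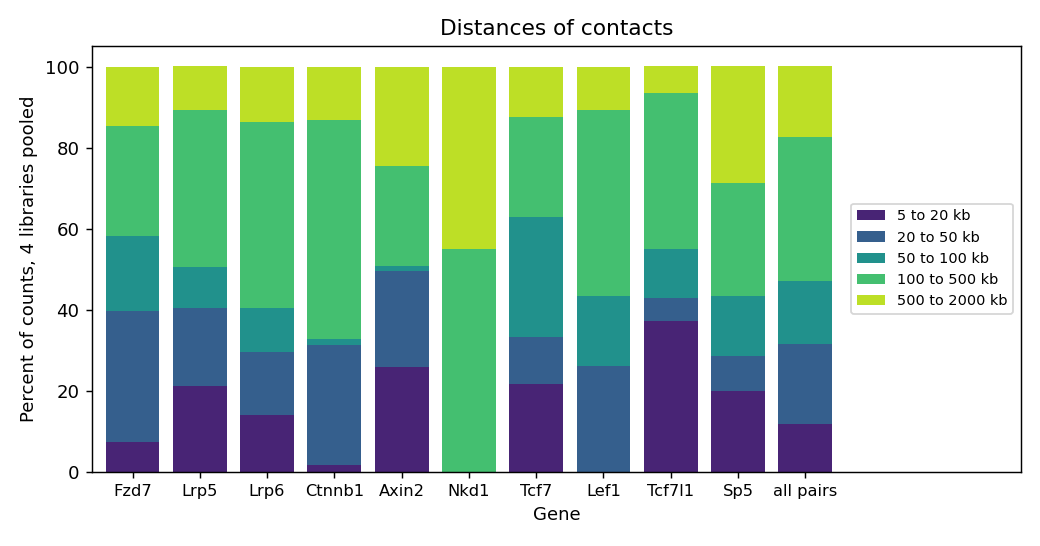
Percent of each gene's counts, pooled over the 4 libraries (vertical axis), by distance class, for the 10 genes and for all loops. Ctnnb1 has 54.2% of its counts at 100 to 500 kb and Nkd1 has 45.0% beyond 500 kb.

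Median distances of Axin2, Fzd7, Lef1, Tcf7l1 and Ctnnb1 were shorter in both D2 libraries than in both B6 libraries, as they were for all loops of the table. The share of all genes with such a difference was not computed. For Axin2 they were 88.9 and 302.7 kb in B6 and 40.3 and 40.3 kb in D2, a difference of -155.5 kb, which was 0.0 kb when only loops with at least 2 counts in a library were used. For Fzd7 they were 65.3 and 86.7 kb in B6 and 50.5 kb in both D2 libraries, and that difference of -25.6 kb was likewise 0.0 kb with at least 2 counts. For Lef1 they were 165.4 and 175.0 kb in B6 and 77.9 and 131.1 kb in D2, and the difference of -65.7 kb was -77.2 kb with at least 2 counts. For Tcf7l1 they were 94.8 and 165.1 kb in B6 and 79.6 and 30.2 kb in D2, a difference of -75.0 kb that was -35.0 kb with at least 2 counts. For Ctnnb1 they were 249.7 kb in both B6 libraries and 231.2 and 217.6 kb in D2, a difference of -25.3 kb, or -25.8 kb with at least 2 counts. All loops of the table together stood at 120.4 and 119.5 kb in B6 and 104.9 and 110.2 kb in D2. No test of these medians was run.

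Another 56 genes of the pathway were counted in the same way. A start-site anchor was found for 49 of them; Wnt4, Wnt10a, Wnt10b, Dvl3, Gsk3a, Csnk1a1 and Tle2 had none in the table. Of the 49 contact totals, 3 rose and 3 fell in D2 by edgeR's test, a share near the 13.3% of all genes that were called. The median log2 fold change of the 49 was -0.05. The count called was 1 without B6 replicate 1, 3 without B6 replicate 2, 3 without D2 replicate 1, 11 without D2 replicate 2 and 2 in DESeq2. By role, 0 rose and 1 fell of 10 ligands and secretion factors, 1 rose of 13 receptors, 1 rose and 2 fell of 7 cytoplasmic factors, 1 rose of 5 targets, and none of 5 surface inhibitors or 9 nuclear factors was called.

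The called genes of this list were named by rule, and whether each single call holds in the alternatives is not given here. Wnt11, a ligand, fell the furthest, from 39.5 and 43.9 CPM in B6 to 19.9 and 20.4 CPM in D2 (log2 -1.12, SE 0.20, edgeR adjusted p 8.83e-05). Dvl1, which relays the signal from Frizzled, fell from 60.5 and 51.4 to 41.5 and 41.4 CPM (-0.50, edgeR adjusted p 0.0380), and Apc, of the destruction complex, from 342.5 and 397.4 to 295.9 and 314.5 CPM (-0.35, 0.0480). In each the strains did not overlap. Fzd5, a second Frizzled receptor, rose from 105.6 and 121.7 to 173.4 and 164.0 CPM (0.50, edgeR adjusted p 0.00529). Myc rose from 112.8 and 149.6 to 194.0 and 188.2 CPM (0.47, 0.0112) and Gsk3b, the kinase that CHIR99021 blocks, from 98.7 and 99.3 to 156.1 and 120.9 CPM (0.41, 0.0339). The largest totals of the list were 4710 counts for the Wnt deacylase Notum, 3854 for Apc and 3343 for the corepressor Tle3; that of Apc fell, as given above, and those of Notum and Tle3 did not pass the test (log2 0.16 and -0.11, edgeR adjusted p 0.437 and 0.635).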

How the data were processed

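The authors deposited raw read-pair counts for each pair of anchors in 4 libraries, and per library a value between 0 and 1 that was taken as the q-value of their loop caller. Per the submitters' processing notes HiC-Pro 2.11.4 and DESeq2 were used on mm10; their roles, the caller and its settings are not given in the sources used here. A deposited distance in bp between anchor midpoints came with each pair. The counts of both strains are given on one set of anchors; how DBA/2J reads were aligned is not given in the sources used here, and the part of sequence differences between the strains in the counts was not tested.

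Start sites were taken from GENCODE M21, and promoter sequences from RefSeq. Loops, anchors and contact totals of protein-coding genes with at least 20 counts over the 4 libraries were compared between strains with edgeR 4.0.16 (R 4.3.3, limma 3.58.1), using TMM factors, strain as the only term, the quasi-likelihood test and Benjamini-Hochberg adjustment over all features. The scripts were tested on simulated data. Printed CPM were not scaled by TMM. Fold changes carry the standard error of the fit.

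The rule named, for each member, its anchors, its 3 loops with the most counts, called loops and the farthest tested loop, and from the wider list up to 6 called genes and the 3 with the highest totals. Members and lists were chosen with earlier results of these data known. Alternatives were DESeq2 1.42.0, other scalings, count minimums of 10, 50 and none, a replicate block, other start-site rules, other q-value limits and leaving out each library. Same-numbered libraries are different lines, so the numbers were not used as pairs.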

Additional observations from a re-analysis of the deposited data

How the results depend on the processing

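Counts of 2 lines per strain limit the tests, and leaving out a library leaves a lone sample that is assumed to vary like the other strain. The cause was not tested for any change given here. Leaving out each library in turn, 325 to 2029 loops, 2589 to 7660 anchors and 774 to 3274 gene totals were called over the whole table (1565, 5054 and 1839 with all libraries), and of the Wnt genes 0 to 2 loops, 0 to 2 anchors, 0 to 1 gene totals and, in the wider list, 1 to 11 gene totals. DESeq2 called 96 loops, 1307 anchors and 770 gene totals, with 0 loops, 0 anchors and 0 totals of the members and 2 of the wider list; at an unadjusted p under 0.05 it had 2358 loops, 5349 anchors and 2084 gene totals. A minimum of 10 counts gave 235 loops, 0 of them of the members. Without a minimum 759 loops and 2563 anchors were called. With library totals only, 1 member anchor was called (Fzd7, 0.44). The replicate block called 1343 loops, 5903 anchors and 2052 gene totals, and 1 member anchor, that of Fzd7 (adjusted p 0.0141); it changed no other call on a member. Deviations of same-numbered libraries correlated at -0.0011 over loops, 0.0061 over anchors and 0.0311 over gene totals, so the numbers show no pairing. With anchors within 2 kb of a start site 2 member gene totals were called. At q under 0.05 in all 4 libraries stood 84 member loops, and at q under 0.01 with at least 4 counts 33.

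Log2 fold changes that changed sign were small or rested on 1 library, and none of them was called. With library totals only, no minimum, and TMM over all pairs in turn, the first loop of Tcf7 had 0.01, 0.02 and 0.02 and that of Tcf7l1 0.03, 0.04 and 0.04. At a minimum of 50 counts Ctnnb1's loop between its own anchors had -0.06 and the downstream Sp5 loop -0.04. With library totals only, the Sp5 total had 0.06 and that of Ctnnb1 0.01. Over the fits without a library, the range was -0.05 to 0.73 and -0.45 to 1.44 for the Gna13 loop and the farthest loop of Axin2, -0.23 to 0.35, -0.24 to 0.30 and -0.03 to 0.73 for the loop 195.0 kb upstream, the loop between its own anchors and the farthest loop of Ctnnb1, -0.08 to 0.51 for the second Fzd7 loop, -0.56 to 0.07 for the farthest Lef1 loop, -0.18 to 0.63 and -0.11 to 0.48 for the Lrp5 loops within the gene and to 1810055G02Rik, -0.32 to 0.48 for the loop of Lrp6 into Mansc1, -0.47 to 0.40 and -0.11 to 0.61 for the downstream and the upstream loop of Sp5, -0.38 to 0.34 for the first Tcf7 loop, and -0.49 to 0.39 and -0.55 to 0.09 for the loops of Tcf7l1 to Tgoln1 and into Kcmf1. For anchors it was -0.05 to 0.26 (Sp5), -0.13 to 0.07 (Lrp5), -0.01 to 0.11 and -0.12 to 0.21 (Ctnnb1) and -0.28 to 0.07 (Nkd1), and for gene totals -0.04 to 0.13 (Tcf7l1), -0.18 to 0.18 (Sp5) and -0.31 to 0.04 (Lrp5).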
